A study of Drosophila melanogaster with 2 samples.

Results

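Weak binding sites of the insulator protein CTCF inside introns, away from every promoter, made up 882 of the 5443 reproducible peaks in Drosophila embryos (16.2%). These were chosen by the authors' pooled signal and by position. The signal was below 1000, and the summit, the highest point of a peak, lay more than 1 kb from every annotated transcript start, inside a gene and in no annotated exon. They were 77.4% of the 1140 intronic peaks at that distance, and the other 258 are called strong intronic peaks. Signal and position are therefore descriptions here and carry no test.

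The data came from 1 group of 2 biological replicates, numbered 2 and 3 in the labels. Both were whole embryos of mixed sex, 0 to 16 h old, from a stable transgenic line in which CTCF is fused to GFP at its C terminus. Chromatin was sheared by sonication and precipitated with an antibody against GFP. Every embryo carried the tag and an untagged control was not used here. The series offers no contrast between conditions, and background of the antibody or of open chromatin at these weak sites was not tested. Whole embryos mix all tissues, so strong binding in few cells and weak binding in many cannot be told apart. Read depth is unknown.

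CTCF is a zinc finger protein that reads a GC-rich DNA motif. In flies it works with cofactors such as Cp190 at insulators, which limit the reach of enhancers, and it is best known for the boundaries of the bithorax complex. Su(Hw) is another zinc finger insulator protein, known from the gypsy retrotransposon. Introns of fly genes, first introns above all, often hold enhancers.

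The sequences below show what distinguished the few peaks with a recognisable CTCF motif. The core searched on both strands was 9 bases long, in the forms AGAGGGCGC, AGATGGCGC, AGGGGGCGC and AGGTGGCGC. The copies with an exact core at the strongest members come first, with the core in capitals and 12 bases on either side, all on dm6. They lie in pum (chr3R:9090492-9090524, plus strand), which encodes the translational repressor Pumilio, Dpp10 (chr2L:6584548-6584580, plus strand), Vsx1 (chrX:5607816-5607848, plus strand), a homeobox gene of the visual system, CG34393 (chr2L:3179828-3179860, plus strand) and Ten-a (chrX:12306732-12306764, plus strand), which encodes a teneurin that matches synaptic partners.
pum: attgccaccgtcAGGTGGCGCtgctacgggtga
Dpp10: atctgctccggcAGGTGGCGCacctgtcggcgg
Vsx1: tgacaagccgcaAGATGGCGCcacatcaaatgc
CG34393: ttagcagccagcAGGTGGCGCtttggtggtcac
Ten-a: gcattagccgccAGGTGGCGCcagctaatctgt
The next copies miss 1 letter of the core, at position 4 in gpp and at position 9 in the others, counted from 1 at the 5′ end of the core. They lie in gpp (chr3R:6429905-6429937, minus strand), which encodes the histone H3 methyltransferase Grappa, Unc-76 (chrX:2082770-2082802, plus strand), which encodes an adaptor for axonal transport, CG15249 (chrX:9891061-9891093, minus strand) and fred (chr2L:3986791-3986823, minus strand), which encodes an immunoglobulin-domain adhesion protein.
gpp: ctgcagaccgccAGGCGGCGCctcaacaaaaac
Unc-76: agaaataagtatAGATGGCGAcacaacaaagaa
CG15249: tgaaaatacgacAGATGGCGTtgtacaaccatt
fred: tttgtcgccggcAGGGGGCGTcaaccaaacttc
The third set carries the longer su(Hw) form in capitals and no CTCF core. It is shown because its letters turned up in a count of all words, described further on. The copies lie in SNF4Agamma (chr3R:21203334-21203366, plus strand), a subunit gene of the energy sensor AMPK, CG11241 (chr3L:22733871-22733903, plus strand), CG15249 again (chrX:9889845-9889877, minus strand) and how (chr3R:22072753-22072785, minus strand), which encodes an RNA-binding protein of muscle and tendon.
SNF4Agamma: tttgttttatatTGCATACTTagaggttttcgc
CG11241: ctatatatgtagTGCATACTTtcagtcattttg
CG15249: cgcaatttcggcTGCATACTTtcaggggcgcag
how: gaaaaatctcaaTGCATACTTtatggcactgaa
The last are the 101 bases centred on the summits of Lmpt (chr3L:16875632-16875732, plus strand), a LIM-domain gene, and spz5 (chr3L:2885741-2885841, plus strand), which encodes a neurotrophin of the Spätzle family. Both are among the strongest members and hold none of these motifs as searched, as most members do. Another reproducible peak had its summit 203 bp from that of spz5. The su(Hw) letters were searched without a mismatch. On each strand the bases of Lmpt hold TGCCTACTT, which is 1 letter from the longer su(Hw) form.
Lmpt: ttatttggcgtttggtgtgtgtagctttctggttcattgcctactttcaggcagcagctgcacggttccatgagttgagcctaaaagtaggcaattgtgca
spz5: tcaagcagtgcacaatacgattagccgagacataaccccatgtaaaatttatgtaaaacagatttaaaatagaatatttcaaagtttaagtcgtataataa

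The signal is the score that the authors' peak caller gave, on no stated scale. It ran from 196 to 989 over the members, with a median of 292 and quartiles of 229 and 425. The strong intronic peaks had a median of 2317. Just inside the limit stood the peaks in Lmpt (989), gpp (988), Unc-76 (975), pum (964), Dpp10 (952), Tlk (951), Vsx1 (950), sm (950), CG34393 (949) and spz5 (944). Tlk encodes the Tousled-like kinase and sm an RNA-binding protein related to hnRNP L. Just outside it stood the intronic peaks in jing (1010), dpr2 (1016), fz (1022), CG32772 (1023) and E5 (1027). The 10 weakest members had signals of 196 to 197 and lay in cic, msi, Eip74EF, bdg, CG10543, Pgant9, CrebB, CG32137, sick and the noncoding RNA gene of the bithorax complex, lncRNA:bxd.

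The relaxed lists of the replicates, with 30000 peaks each, held almost all of these sites. A summit within 100 bp was listed in replicate 2 for 871 of the 882 members (98.8%) and in replicate 3 for 865 (98.1%), and 854 had one in both. Among the 5443 strongest peaks of both replicates were 648 of the 882 (73.5%). The nearest summit was taken, which at a few sites may be a side summit. The peak in Lmpt scored 420 in replicate 2 and 563 in replicate 3, that in gpp 485 and 506, and that in Unc-76 513 and 458. At the weak end the peak in cic scored 96.6 and 102, while that in CG32137 scored 119 and 63.5. The order of the replicates thus differed from site to site, and neither replicate was always the higher. The reproducible list was made from these same replicates, so these shares are no independent sign of their agreement.

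Over the 854 members matched in both, log2 of replicate 3 over replicate 2 had a median of 0.12 and an SD of 0.45. For the strong intronic peaks the SD was 0.14. In quintiles of signal the members' SD was 0.56 in the weakest and 0.29 in the strongest. More than 2-fold apart were 34 of the 854 members and 0 of the 258 strong intronic peaks. Members with the exact CTCF core had an SD of 0.27, and those without the core at up to 1 mismatch 0.47. Of 79 members with the exact core, 77 were also among the 5443 strongest peaks of each replicate, compared with 488 of 708 members without the core (68.9%). Core-bearing members also had higher signals, so the part of strength in this difference was not tested.

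**Figure D1:**
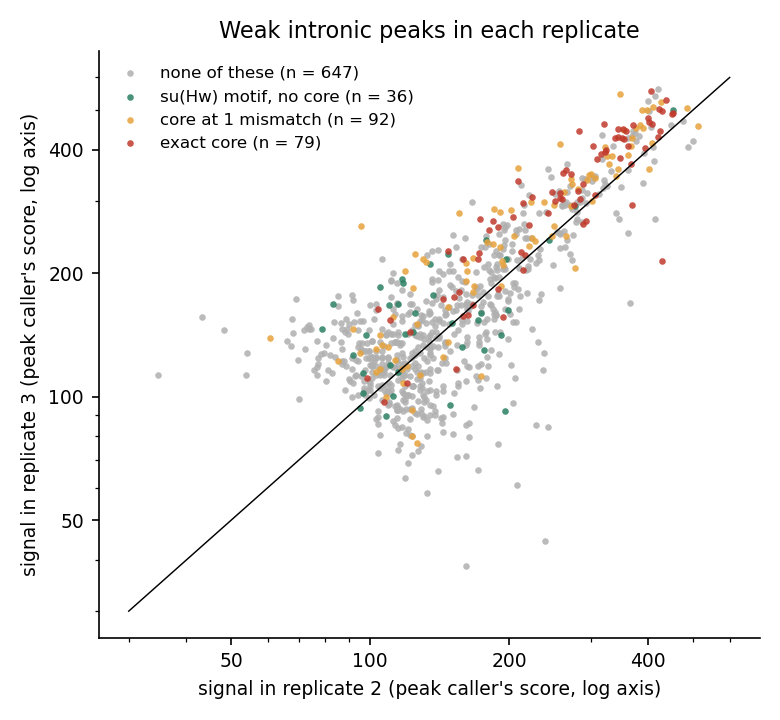
Signal of each weak intronic peak in replicate 2 (x axis) and replicate 3 (y axis), both the peak caller's score on log axes; each point is 1 of the 854 peaks matched in both, coloured by the motif within 50 bp of its summit, and the line marks equal signal. Peaks with the exact core lie toward the strong end and close to the line, and peaks with none of the motifs spread widest at the weak end.

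The CTCF core marked a minority of the weak intronic sites, but at far more summits than neighbouring sequence. The exact core lay within 50 bp of the summit in 79 of 882 members (8.96%, 95% Wilson interval 7.25 to 11.0%). Windows of the same width 500 bp away held it in 0 members on the left and 1 on the right (exact McNemar test, two-sided, adjusted p = 1.88e-21). It was in 0.167% of windows spaced every 100 bp through introns in which a member could lie, and in 12.7% of all reproducible peaks. With at most 1 mismatch the core was in 174 members (19.7%) against a mean of 5.10% of flank windows (exact McNemar test, adjusted p = 3.61e-18), 3.51% of such intron windows and 24.8% of all peaks. Peaks are not replicates, and these p-values describe this list.

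Of the 14 motif forms searched, 3 (21.4%) were more frequent at the summits of the members, and the third was su(Hw). Its letters TGCATAC were in 42 members (4.76%, 3.54 to 6.37%) against 1.70% of flank windows, with an adjusted exact McNemar p of 0.00402. They were in 1.5% of intron windows and 3.25% of all peaks. The call was not stable. The adjusted exact p was 0.0537 without replicate 2, 0.153 with flanks 1000 bp away, 0.167 within 25 bp of the summit and 0.107 within 100 bp. None of the 14 forms (0%) passed the exact McNemar test as less frequent at summits, and 0 did so at an unadjusted exact p under 0.05.

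The other forms did not pass the test in either direction. The Pho motif GCCAT, read by a recruiter of Polycomb proteins, was in 19.4% of summit windows, 18.7% of flank windows, 19.7% of intron windows and 22.6% of all peaks. GAGAGAG, read by GAGA factor, was in 1.93% of summit windows and 2.49% of flank windows, with 1.34% of intron windows and 1.76% of all peaks. The Zelda motif CAGGTAG, read by the activator of the zygotic genome, was in 0.113% of summit and 0.624% of flank windows, 0.456% of intron windows and 0.257% of all peaks. TATCGATA, the promoter element DRE, was in 0.567% of summit windows, 0.0567% of flank windows, 0.215% of intron windows and 2.83% of all peaks. The E-box CATATG was in 4.99% of summit, 4.02% of flank and 3.05% of intron windows and 2.99% of all peaks, CAGCTG in 3.74%, 4.88%, 3.58% and 5.75%, and CACGTG in 1.25%, 1.13%, 1.10% and 1.32%. The repeat CACACACA was in 2.15%, 3.46%, 2.56% and 1.54% in the same order. The core spelled backwards, a control of equal composition, was in 0 of the 882 members, 0.0510% of intron windows and 0.110% of all peaks.

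The 4 forms of the core were not used equally. Of 82 exact copies, AGGTGGCGC made up 37 (45.1%, 34.8 to 55.9%), AGATGGCGC 29 (35.4%), AGGGGGCGC 10 and AGAGGGCGC 6. Among the 155 copies at strong intronic peaks the order of the first 2 was the other way round, with AGATGGCGC at 73 (47.1%, 39.4 to 54.9%) and AGGTGGCGC at 45 (29%, 22.5 to 36.6%). This difference was noticed in the counts and was not tested. The copies lay close to the summit, a median of 15 bp from it, and 41 of 82 were on the strand of the host gene. Only 3 members held 2 exact copies, among them those in olf413 and NetB.

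Where 1 letter was missed, it was most often the last. Of the 95 members with the core at 1 mismatch and no exact copy, 41 (43.2%) missed position 9, as in Unc-76, CG15249 and fred above, and 14 missed position 7. Among 1636 intron windows with such copies, 21.6% missed position 9 and 16.0% position 7. Positions 4 and 5 were each missed in 3.16% of the member copies, against 3.18% and 7.27% of the intron copies. Flank windows, of which 5.10% held the core at up to 1 mismatch, hold such copies as well.

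Motif content followed strength within the weak class. In the weakest quintile of the members, with signals of 196 to 222, the exact core was at 2 of 177 sites (1.13%). In the next quintiles it was at 1.13%, 4.55% and 9.09%, and in the strongest, from 482 to 989, at 51 of 176 (29%, 22.8 to 36.1%). With 1 mismatch allowed the share was 5.08% in the weakest quintile, with an interval of 2.70 to 9.38% that takes in the 5.10% of all flank windows, and 52.3% in the strongest. The su(Hw) motif had no such order, with 3.39%, 3.95%, 8.52%, 5.11% and 2.84% from the weakest to the strongest quintile. The intervals of its neighbouring quintiles overlapped.

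**Figure D2:**
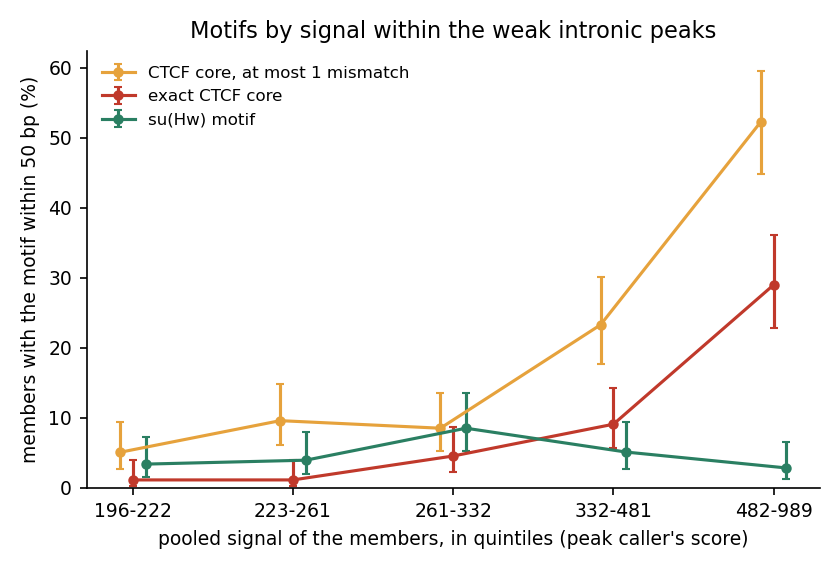
Share of weak intronic peaks with each motif within 50 bp of the summit (y axis, percent) in quintiles of pooled signal (x axis, the peak caller's score; 176 or 177 peaks each); bars are 95% Wilson intervals over peaks. The exact core is at 1.13% in the weakest quintile and 29% in the strongest, while the su(Hw) motif is highest in the middle quintile at 8.52%.

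The 10 strongest members with the exact core lay in 10 different genes. After pum, Dpp10, Vsx1, CG34393 and Ten-a, whose sequences are given above, came olf413 (898), Trim9 (898), mamo (879), NetB (878) and SLO2 (867). Trim9 encodes a ubiquitin ligase of axon branching, mamo a zinc finger factor, NetB a netrin guidance cue and SLO2 a potassium channel. In pum the replicates scored 406 and 556, in Ten-a 421 and 502 and in NetB 399 and 477. Trim9 stood apart with 428 in replicate 2 and 214 in replicate 3. Whether the nearest summit taken there in replicate 3 was a side summit was not tested. Distances to the nearest transcript start reached 32121 bp in Ten-a and 25312 bp in pum.

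The weak intronic sites were poorer in the core than strong intronic sites and richer than weak promoter sites. Of the 258 strong intronic peaks 57.4% had the exact core, compared with 8.96% of the members (odds ratio 0.0734, 0.0514 to 0.104 at 95% confidence; adjusted p = 1.65e-56 by Fisher's exact test, two-sided). Of the 2890 weak peaks within 1 kb of a start 1.63% had it (odds ratio 5.95, 4.06 to 8.80, adjusted exact p = 1.93e-21). Of the 454 weak intergenic peaks 13% had it (odds ratio 0.659, 0.454 to 0.960, adjusted exact p = 0.0247). That last call ended when peaks below 2000 counted as weak, at an odds ratio of 0.795 (adjusted exact p = 0.129). With 1 mismatch allowed the shares were 81.4% at strong intronic, 7.99% at weak promoter and 25.1% at weak intergenic peaks, against 19.7% of the members.

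Other motifs were also compared between the classes. DRE was in 0.567% of the members and 4.46% of weak promoter peaks (two-sided Fisher's exact test, adjusted over 36 comparisons, p = 3.29e-09). Strong intronic peaks held it in 0.775% and weak intergenic peaks in 0.220%. Motif 1, GGTCACAC, was in 0.113% of the members and 4.22% of weak promoter peaks (adjusted exact p = 4.92e-12). It was in 0% of strong intronic and 0.661% of weak intergenic peaks. The members' flank windows held it in 0.283%, intron windows in 0.147% and all peaks in 2.48%. The su(Hw) motif was more frequent in the members than in weak promoter peaks, 4.76% against 2.49% (adjusted exact p = 0.00527). It was in 3.49% of strong intronic peaks (adjusted exact p = 0.834) and 6.39% of weak intergenic peaks (adjusted exact p = 0.554). The E-box CATATG was more frequent in the members than in weak promoter peaks, 4.99% against 2.56% (adjusted exact p = 0.00333), and CAGCTG less frequent, 3.74% against 6.92% (adjusted exact p = 0.00297). The Pho motif, whose letters overlap the CTCF core on the other strand, was in 19.4% of the members and 48.1% of strong intronic peaks (adjusted exact p = 2.79e-17). Runs of 8 A were in 7.71% of the members, 5.09% of weak promoter peaks (adjusted exact p = 0.0209) and 1.55% of strong intronic peaks (adjusted exact p = 0.00100), and in 6.94% of intron windows and 4.87% of all peaks. The members' own flank windows held such runs in 9.07%. Promoter peaks lie near starts by definition, so these differences cannot be told apart from position.

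A count of all 7-letter words, free of any motif list, was led by pieces of the CTCF core. Over all members 15 of 2746 words (0.546%) were more frequent at summits than in both flanks (exact McNemar tests, adjusted). Most were pieces of the core and the bases beside it, led by GCGCCAC in 67 members against 6 and 6. In the 708 members without the core at up to 1 mismatch, 5 of 1897 words (0.264%) passed the test. The su(Hw) motif TGCATAC itself did not pass its test in this set, with 37 members against 16 and 12 (adjusted exact p = 0.0658 over the motif forms). The first word was AAGTATG, in 49 members against 9 on the left and 7 on the right (adjusted exact p = 8.89e-05), and next AGTATGC, in 41 against 6 and 4 (adjusted exact p = 0.000168). No word was less frequent in either set (0% by the exact McNemar tests), and at an unadjusted exact p under 0.05 there were 27 and 20 such words.

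Read on the other strand, the leading 2 words are stretches of the longer su(Hw) form TGCATACTT. That form was in 24 members (2.72%, 1.84 to 4.02%), in 0 left and 2 right flank windows, in 0.248% of intron windows and in 1.60% of all peaks. It was picked after the words had been seen and has no test. Among the 49 core-free members with AAGTATG, 22 held the whole form. The word AAAGTAT was in 53 core-free members against 17 and 14 (adjusted exact p = 0.00890), AAAAGCT in 46 against 15 and 13 (adjusted exact p = 0.0419) and ATATTAA in 53 against 20 and 18 (adjusted exact p = 0.0426). None of the core-free members with AAAAGCT or ATATTAA held the longer su(Hw) form. In intron windows AAGTATG was found in 1.42%, AGTATGC in 0.983%, AAAGTAT in 2.90%, AAAAGCT in 2.73% and ATATTAA in 4.10%, and in all peaks in 3.95%, 3.58%, 5.64%, 5.97% and 5.03%.

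The strongest members with the longer form lay in Nplp1 (942), a neuropeptide precursor gene, comm3 (893), SNF4Agamma (563), CG11241 (490) and mam (414), which encodes the Notch coactivator Mastermind. In Nplp1 the replicates scored 452 and 501, in comm3 348 and 547, and in SNF4Agamma 278 and 291. These 5 were listed after the form had been seen. The peak in comm3 also held a CTCF core at 1 mismatch. The gene CG15249 held both kinds of site 1185 bp apart in its first intron, with a 1-mismatch CTCF core at a signal of 919 and the su(Hw) form at 403. Only 1 of 882 members held both the exact CTCF core and TGCATAC.

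Most members, 671 of 882 (76.1%), held neither the core at up to 1 mismatch nor TGCATAC, and their summits were rich in A and T. Their median signal was 269 and their median GC content within 50 bp was 34.7%, compared with 576 and 47.5% for the 79 members with the exact core. Over the 708 members without the core, GC averaged 36.0% (SD 8.73) at the summit and 41.1% (SD 7.03) in the flanks, lower at the summit in 484 of them (68.4%). Members with the exact core went the other way, with 46.7% at the summit (SD 8.35) and 41.1% in the flanks. The core is itself rich in G and C, and these groups were split by its presence in the same summit window. Part of their difference was therefore set by the split. All members together had 38.1% at the summit and 41.1% in the flanks. Strong intronic peaks had 47.1% and 40.9%, weak promoter peaks 39.6% and 44.5%, and the introns at large 40.1%. Weak intergenic peaks had 39.7% and 40.5%, lower at the summit in 51.1% of them, compared with 60.5% of all members and 64.7% of weak promoter peaks. How base content affected library preparation and read mapping was not tested.

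**Figure D3:**
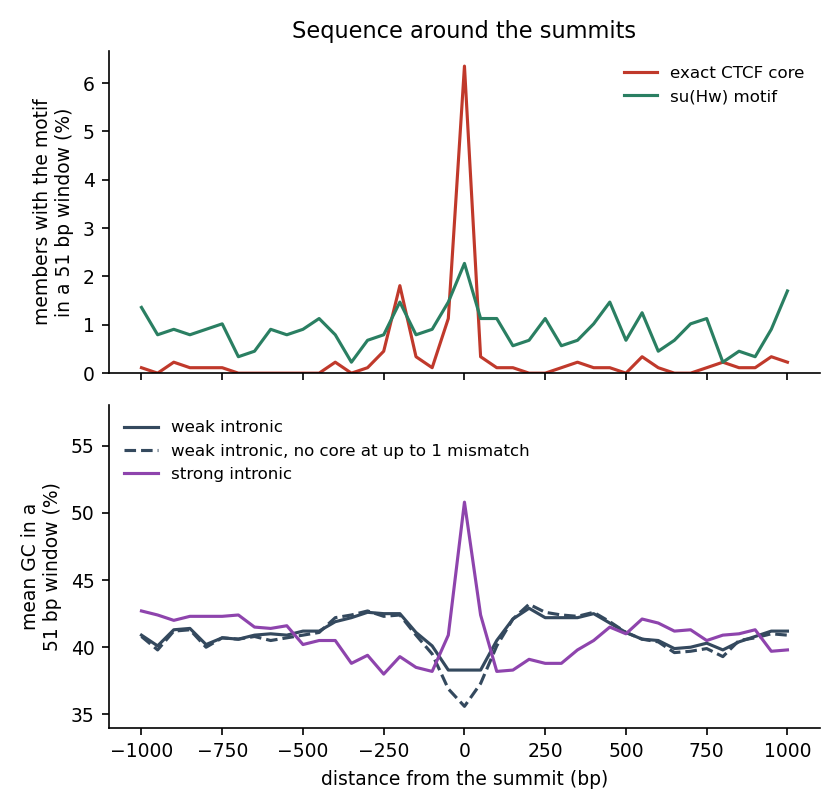
Share of weak intronic peaks with the exact CTCF core or the su(Hw) motif (top, percent) and mean GC (bottom, percent) in windows of 51 bp at distances from the summit (x axis, bp); the lower panel also shows members without the core and strong intronic peaks. The core stands at 6.35% over the summit with a side peak of 1.81% at 200 bp to the left, and GC is 50.8% at strong intronic summits against 35.6% at members without the core.

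Some weak peaks had a close neighbour. Another reproducible summit lay within 250 bp of 66 members (7.48%), at a median of 206 bp and never closer than 199 bp, and for 25 of them that neighbour was a strong peak. Of all reproducible peaks 11.6% had such a neighbour. Of the 16 members with an exact core in the window 200 bp to the left of the summit, 13 had another summit within 250 bp, and in 12 it was strong. None of the 34 members within 1 kb of a strong peak held the exact core at its own summit. Without the 66 members the exact core was at 9.31% of summits (adjusted exact McNemar p = 1.45e-20) and 46.1% lay in first introns.

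First introns held 404 members (45.8%, 42.5 to 49.1%), compared with 29.8% of the intron sequence in which a member could lie. Second introns held 259 (29.4%) compared with 26.8% of it, and 84 of the 258 strong intronic peaks (32.6%, 27.1 to 38.5%) were in first introns. First introns lie near starts, and the part of distance in this difference was not tested. Between 1 and 2 kb from the nearest start 61.5% of members and 47.1% of intron sequence lay in first introns. The shares were 44.7% and 38.1% from 2 to 5 kb, 40.2% and 30.4% from 5 to 10 kb, and 30.4% and 16.0% beyond 10 kb. Members with the exact core were in first introns less often, 18 of 79 (22.8%, 14.9 to 33.2%), than members with none of the motifs, 340 of 671 (50.7%, 46.9 to 54.4%). These shares are descriptions without a test.

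Density and motif content ran in opposite directions with distance from promoters. There were 32.9 members per Mb of intron sequence between 1 and 2 kb from the nearest start, 23.2 between 2 and 5 kb, 18.9 between 5 and 10 kb and 8.02 beyond 10 kb. The share with the exact core was 3.46% (1.77 to 6.68%), 7.24%, 11.0% and 18.8% (13.2 to 26.2%) over the same bins. Median signal stayed between 281 and 301. Members with the exact core lay a median of 6792 bp from a start and those with none of the motifs 3480 bp. Strong intronic peaks also thinned out with distance, from 8.40 to 3.37 per Mb.

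**Figure D4:**
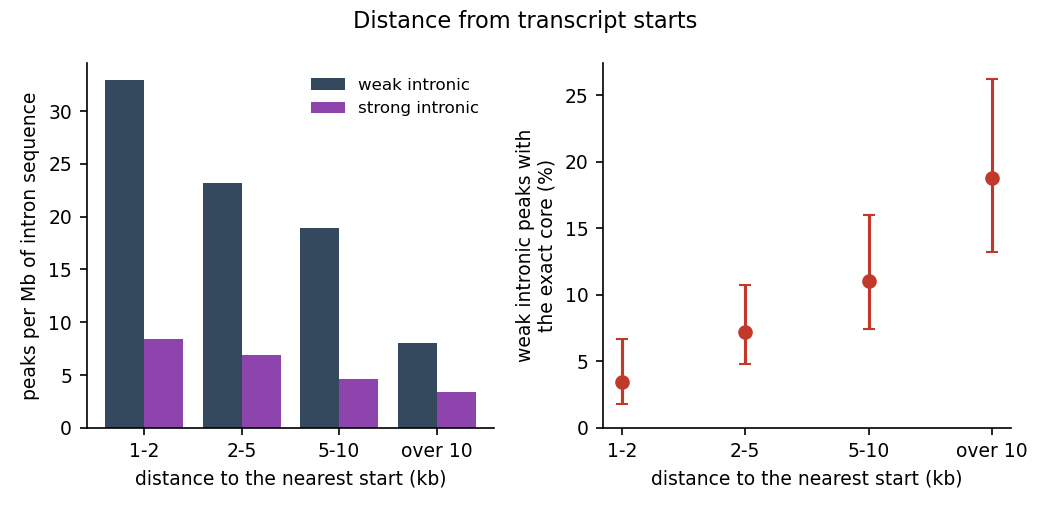
Left, weak and strong intronic peaks per Mb of intron sequence (y axis) by distance to the nearest transcript start (x axis, kb); right, share of weak intronic peaks with the exact core (percent), with 95% Wilson intervals over peaks. Weak peaks go from 32.9 to 8.02 per Mb with distance while the core share goes from 3.46% to 18.8%.

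The sites were spread over all arms, with some unevenness. X had 22.9 members per Mb of intron sequence (exact Poisson 95% interval 19.9 to 26.1, 214 members) and 3R had 15.2 (13.1 to 17.5, 195 members). The other large arms lay between, at 16.8 to 19.5 per Mb, and the small chromosome 4 had 3 members (5.69 per Mb, 1.17 to 16.6). Strong intronic peaks were at 6.30 per Mb on X and 3.82 on 3R, and at 5.13 to 6.42 on the other large arms. By intron length the density was 19.9 per Mb up to 5 kb, 21.9 from 5 to 20 kb, 16.4 from 20 to 50 kb and 12 above that. Only 1 of 882 summits lay in an annotated transposable element, although these cover 7.58% of the intron windows. That value is uncertain, because the treatment of reads that match several places is not stated.

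Members with and without the motif also differed in their distance to strong peaks. The median distance to the nearest strong peak was 29644 bp over all members, and 220 (24.9%) lay within 10 kb of one. Of members with the exact core 5 of 79 did (6.33%, 2.73 to 14.0%), compared with 190 of 671 with none of the motifs (28.3%). The host gene held a strong peak as well for 301 members (34.1%, 31.1 to 37.3%). This share depended on the limit, at 45.6% with weak peaks below 500 and 23.3% with weak peaks below 2000, since a lower limit makes more peaks strong.

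The 882 sites lay in 571 host genes, 3.23% of the 17683 annotated genes and 9.59% of the 5952 genes with intron sequence far enough from starts. A single member was in 387 of them, 2 were in 119, 3 in 33, and 32 genes with at least 4 held 158 members. Host genes had a median of 18.2 kb of such sequence, compared with 0.900 kb over all genes that had any, so long introns had more room for them. A single gene held the summit for 835 members, and elsewhere 1 host was taken, a protein-coding gene first and then the longest.

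The gene with most was kirre, with 10. It encodes an immunoglobulin adhesion protein of myoblast fusion and neurons, and spans 394 kb of X. Of its members 5 held the exact core, and 2 of the 5 in pum did. A run of 4 core-bearing sites lay 54.7 to 74.2 kb from the 5′ end, with signals of 731, 439, 481 and 552. The replicates scored 348 and 381 at the first of these, 181 and 255 at the second, 221 and 262 at the third and 209 and 335 at the fourth. The fifth, at 175 kb, had 844, with 370 in replicate 2 and 460 in replicate 3. All 5 were higher in replicate 3, as were 538 of the 854 matched members (63.0%). One of the members without a core, at 275, lay 212 bp from a strong peak.

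The next genes were tara with 7 and Eip75B, crp, shn, Ptp10D, Hr4 and sbb with 6 each, then Raf and pum with 5, which several other genes had too. Eip75B and Hr4 encode nuclear receptors of the ecdysone response, crp a helix-loop-helix factor, shn a zinc finger factor of Dpp signalling, Ptp10D a receptor tyrosine phosphatase, sbb a transcriptional corepressor and Raf the kinase of the MAPK pathway. All 7 members of tara were in its first intron, with signals of 206 to 438, around a strong intronic site of 4918 that held the exact core. The transcript used for the strongest of these members has 1 intron, so no other intron was possible there. Hr4 had a strong intronic site of 34108 with the core and 6 weak ones of 215 to 616 without it. Eip75B had 4 strong intronic sites, at up to 26316, and its 6 weak ones reached 507 and held no exact core. The weak site of 507 lay 210 bp from a strong one. In shn and Ptp10D no strong peak was found.

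**Figure D5:**
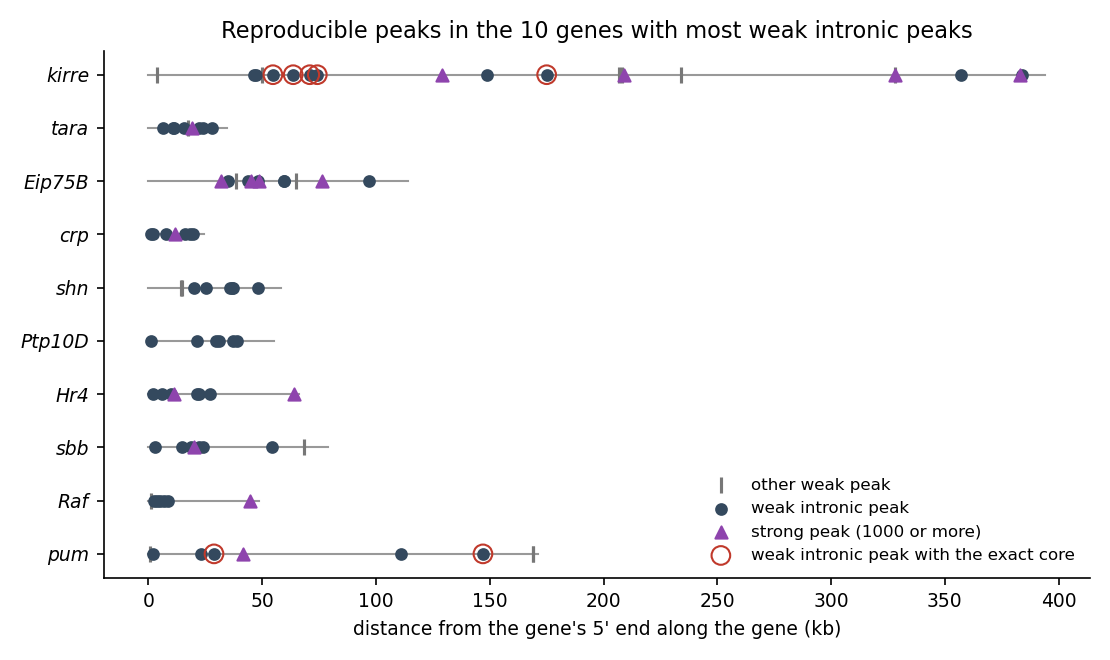
Reproducible peaks along the 10 genes with the most weak intronic peaks, by distance from the gene's 5′ end (x axis, kb); grey lines span the genes, dots are weak intronic peaks, triangles strong peaks, ticks other weak peaks, and red rings mark weak intronic peaks with the exact core. The rings fall on kirre, with 5, and pum, with 2.

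The gene Lrch was dense for its size, and NetA, NetB, dnc and Lar were far less so. Lrch had 5 members in 9.80 kb of intron sequence, at 200.3, 214, 226, 520 and 735, none with the exact core. The netrin genes NetA and NetB, neighbours on X, had 4 each, with the exact core in 1 and 2 of them. In NetB the sites at 878 and 243 lay 206 bp apart. The genes dnc, a cAMP phosphodiesterase gene of learning, and Lar, a receptor phosphatase gene of axon guidance, had 2 of 4 and 1 of 3 members with the exact core. Lrch, NetA, dnc and Lar fall outside the rule for named genes and were chosen after their values were seen.

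The gene lists described next were written by hand and are not complete: Vsx1, SLO2 and Raf, for example, are in none of them. Over all genes there were 18.2 members per Mb, and 8.96% of all members held the exact core. Exact Poisson 95% intervals are given, which cover counting error only and treat members of 1 gene as independent. Of 49 listed genes of axon guidance and neuronal adhesion 21 were hosts, with 51 members at 21.5 per Mb (16.0 to 28.3), and 13 of these had the exact core. The strongest lay in dpr6 (920), Ten-a (910), NetB (878) and kirre (844). Of 48 listed ion channel and synaptic genes 8 were hosts, with 9 members at 7.47 per Mb (3.41 to 14.2). The highest signals within that list were in the potassium channel genes Shal (565), Sh (484) and KCNQ (410), followed by Ca-alpha1T (330). The member in Ca-alpha1T was the 1 of the 9 with the exact core. The potassium channel gene SLO2, left out of the list, had a stronger member (867) with the exact core. In dpr6 the replicates scored 499 and 420, and in Shal 280 and 270.

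The listed nuclear receptor and ecdysone response genes had 25 members in 9 of 25 genes at 44.7 per Mb (28.9 to 65.9). By signal they were led by Eip63E (819), Hr3 (788), Eip74EF (756) and Eip78C (649). The exact core was in 1 of the 25, that in Eip74EF, which scored 338 in replicate 2 and 427 in replicate 3. The list of Hox and other homeobox genes had 7 members in 6 of 64 genes at 7.24 per Mb (2.91 to 14.9), and 0 of these 7 held the exact core. Within the list the strongest lay in Dr (815), the bithorax gene Ubx (720), nub (645) and hth (602), and those of Dr, Ubx and hth held the core at 1 mismatch. The homeobox gene Vsx1, which the list leaves out, had a stronger member (950) with the exact core. In Ubx the replicates scored 323 and 406.

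The listed signalling genes had 24 members in 15 of 55 genes at 29.1 per Mb (18.7 to 43.3), 0 of them with the exact core, led within the list by vn (544), the gene of the EGF receptor ligand Vein, the Wnt receptor gene fz (485), mam (414) and the insulin receptor gene InR (365). In fz the replicates scored 242 and 84.5. That summit lay 203 bp from a strong peak, and whether the summits matched there were side summits was not tested. Listed muscle genes had 13 members in 7 of 30 genes at 33.8 per Mb (18.0 to 57.8), in how (372), Zasp52 (369), mew (285) and Mef2 (257) among others. Listed RNA-binding and splicing genes had 24 members in 13 of 28 genes at 15.0 per Mb (9.59 to 22.3), with pum, sm, bru3 (811) and Rbp6 (620) the strongest. Of 72 genes of cytoplasmic ribosomal proteins 0 were hosts, but only 4 of them have intron sequence more than 1 kb from a start. The lists were not tested against each other, and their members share genes and neighbourhoods.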

How the data were processed

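ChIP-seq peak lists of 2 replicates on dm6 were the starting point. The deposited signal value is a caller score on no stated scale, used to describe and rank peaks within a list. Peaks were thresholded by the irreproducible discovery rate over both replicates, per the file headers, and each replicate has a relaxed list of 30000 peaks. Not given in the sources used here are the aligner, the caller, any version and the depth per sample. Lists on dm3 and the control libraries were not used here.

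Genes came from Ensembl release 115 (FlyBase genes, transposable elements left out) and sequence from the RefSeq dm6 assembly. Coordinates are 1-based. Both strands were searched for motifs within 50 bp of summits and of points 500 bp to either side (exact McNemar tests, two-sided, larger p kept, Benjamini-Hochberg adjustment over the 14 forms), and peak classes by Fisher's exact tests, two-sided and adjusted over 6 and 36 comparisons. The threshold was 0.05. Windows every 100 bp of the 48.4 Mb of intron more than 1 kb from a start gave the intron values, a subset of 48428 of them those at 1 mismatch, and words in at least 30 windows were tested. Intervals cover counting error over peaks only.

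The members, the 8 gene lists (371 of 379 names found, 5 through synonyms) and the motifs were chosen with earlier results of these data known. Named were the 10 strongest and 10 weakest members, the 5 intronic peaks just above the limit, the 10 genes with most members, the 10 strongest members with the exact core and up to 4 hosts per list by signal. Alternatives were other limits, start distances, windows, flanks and gene sets, overlapping peaks kept once, and members kept only where they matched the 5443 strongest peaks of replicate 3 (without replicate 2) or of replicate 2 (without replicate 3), at that replicate's summit; these members still come from the list made with both replicates. Added after the data were examined were the word counts, the longer su(Hw) form, other motifs between classes, members per Mb, members matched in both replicates and the exclusion of summits within 250 bp. The motif search and the McNemar test were checked on made-up sequence, and the placement of summits on the gene annotation. All 8 of these checks passed. Fisher's tests, the adjustment and the word counts were not checked in this way. Software was scipy 1.17.1, numpy 2.4.6, pandas 2.3.3 and matplotlib 3.10.9 under Python 3.11.15.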

Additional observations from a re-analysis of the deposited data

How the results depend on the processing

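The excess of the CTCF core at summits, exact or with 1 mismatch, and the differences of the exact core from strong intronic and weak promoter peaks passed their exact tests in the same direction under every alternative run. The exact core was at 3.92 to 13.7% of members over the planned settings. The number of members ran from 651 with starts at least 2000 bp away to 1085 with 500 bp. The count of other motifs called, 1 in the main test and the su(Hw) motif there, was 0 without replicate 2 and 1 without replicate 3, and 0 with windows of 25 or 100 bp and with flanks 1000 bp away. The odds ratio against weak intergenic peaks, 0.659, was 0.795 with weak peaks below 2000 and no longer passed the test. The share in genes that also hold a strong peak moved from 34.1% to 45.6% with weak peaks below 500 and to 23.3% below 2000, and the share in first introns from 45.8% to 49.5% and 40.2% with starts at least 500 and 2000 bp away; both follow from which peaks each setting admits. Words of 6 and 8 letters gave counts within 1.5 times that of 7. No paired analysis was possible because there is 1 group. No depth is given, so a missing motif or peak sets no limit on binding.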
